A study of Rattus norvegicus with 9 samples.

Results

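Release of neurotransmitter depends on a set of proteins that dock, fuse and recycle synaptic vesicles, and 58 rat genes of this machinery were followed in blood, hippocampus (HC) and prefrontal cortex (PFC). The genes were taken from a list of names, and for each gene the probe set of its annotated symbol with the highest mean over the 9 arrays was used. Of the 58 genes, 57 were matched to a probe set among the 29215 of the array, and no probe set was matched to Napb. Expression was measured on the Affymetrix Rat Gene 1.0 ST array, which reads a transcript with probes along its whole length, in 3 arrays of each tissue. The groups were whole blood, HC and PFC of the same 3 untreated male Wistar rats, numbered 2, 5 and 7, which were 6 weeks old on arrival and housed for 1 week more. Blood was drawn into PAXgene tubes, and the brain regions were punched from frozen coronal sections, so that each brain sample mixed neurons, glia and vessels and each blood sample mixed red cells, platelets and white cells. The replicates were separate animals. RNA from blood and from brain was isolated with different kits, and kit and tissue cannot be told apart. All values below are log2 expression levels after robust multi-array averaging (RMA), given in the order of rats 2, 5 and 7, and a difference of 1 is a doubling. Brain stands for the average of HC and PFC.

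In a synaptic terminal, fusion is driven by SNARE proteins: synaptobrevin (VAMP) on the vesicle zips together with syntaxin and SNAP-25 on the plasma membrane. Synaptotagmins such as Syt1 sense the calcium that enters with an action potential, and complexins hold and prime the SNARE complex. The active zone proteins RIM, Munc13, bassoon and piccolo position the vesicle, and NSF with the SNAP adaptors takes spent complexes apart. Blood cells release granules with the same kind of machinery but with other paralogs: SNAP-23, VAMP8 and syntaxin-11 act in platelets, and syntaxin-11, STXBP2, UNC13D and RAB27A act in cytotoxic lymphocytes, where their loss in humans causes inherited immune disease.

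The tissue labels were checked against marker genes. All 10 neuronal markers were present in HC and PFC by the threshold of a mean above 6.2, and 4 in blood, where the mean over the list was 5.66 to 5.67 against 10.35 to 10.63 in the brain arrays. All 4 platelet and all 6 neutrophil markers were present in blood and none in HC or PFC. Of the 6 erythroid markers, only Hbb, a globin chain, was present in the brain regions. Of the lymphocyte markers, all 6 for T cells, 3 for B cells and 5 for cytotoxic cells were present in blood. In brain Cd3e was present in HC (mean 7.14, against 5.04 in PFC) and Gzmb, a granzyme, narrowly in both regions (6.26 and 6.28), while 4 of the 5 cytotoxic markers lay below the background limit there. In bulk tissue, fewer cells of a type and less RNA per cell cannot be told apart. Ranks of all probe sets correlated at 0.957 to 0.968 between blood arrays and at 0.995 to 0.996 within each brain region, and the members followed this: blood had a median SD over rats of 0.257 for the members, HC of 0.0613 and PFC of 0.0652.

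The members were mostly higher in brain. By the 6.2 threshold, 51 of the 57 were present in HC, 51 in PFC and 29 in blood. The 23 members present in all 3 tissues include the broadly used SNAREs Snap23, Vamp3, Stx4 and Stx7, 27 were present in both brain regions but not in blood, and 4 were present in blood alone, namely Vamp8, Stx11, Stxbp2 and Unc13d. Syt6 was present in blood and PFC, and Rab27a in blood and HC. Cplx3, a complexin known from the retina, was present in no tissue, which left 56 members for testing against blood. The count for blood depended on the threshold, with 17 present at 7.2 and 47 above the level that 95% of 1298 chemosensory receptor probe sets did not exceed in blood, which was 5.53. This level is used below as the background limit, and the means of 10 members lay under it in blood.

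**Figure D1:**
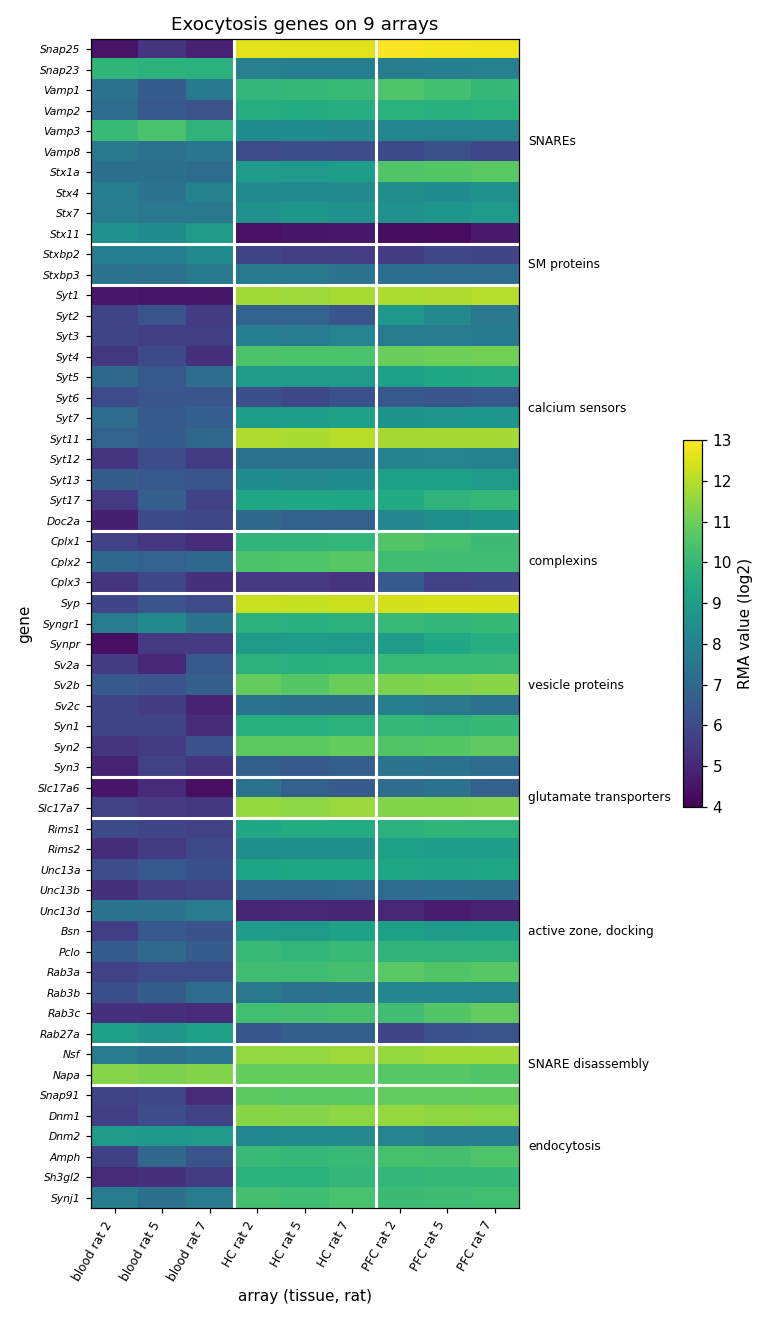
RMA log2 level of the 57 members (rows, grouped by role) in the 9 arrays (columns, 3 rats per tissue). Most rows are lighter, which stands for a higher level, in the HC and PFC columns than in the blood columns, while Stx11, Unc13d, Rab27a, Stxbp2, Snap23, Vamp3 and Vamp8 show the opposite.

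Against blood, 54 of the 56 members differed at an adjusted p under 0.05 in limma (Benjamini-Hochberg over 16884 probe sets), 45 higher and 9 lower in brain. This has to be read against a background in which 86.2% of all probe sets tested were called in this comparison, 48.8% higher and 37.4% lower, so that a call alone says little about the members. Probe sets entered the test by a mean above 6.2 in at least 1 tissue. The 27 members present in both brain regions but not in blood entered only through brain, and the 4 present in blood alone only through blood. For these members the direction was largely set by the filter and is no evidence. The size of the differences set them apart from the median probe set as a description: the median difference was 2.78 over the members and 0.22 over all probe sets tested. All 45 members that were higher had every brain array above every blood array, as had 44.7% of all probe sets tested, and 17 of them differed by at least 4, which is 16-fold, against 3.3% of all probe sets. In 9 of the 45 the blood mean lay below the background limit, and for these the difference or fold is given as a lower bound ("at least"), with blood raised to that limit. With values raised in this way the median of the members was again 2.78, and the same 17 members differed by at least 4. HC and PFC gave similar counts when each was set against the same blood arrays, with 45 higher and 9 lower in HC (of all probe sets 83.9% were called, 47.6% higher and 36.3% lower) and 45 higher and 10 lower in PFC (84% called, 47.3% higher and 36.7% lower). The member that was lower in PFC only was Stxbp3, by -0.25, and it was not called when the rat was a block. With a difference of at least 1 asked for as well, 44 members were higher and 7 lower in brain, against 29% and 19.8% of all probe sets. By that rule HC gave 42 and 7, against 29% and 20%, and PFC gave 44 and 7, against 28.9% and 19.8%.

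**Figure D2:**
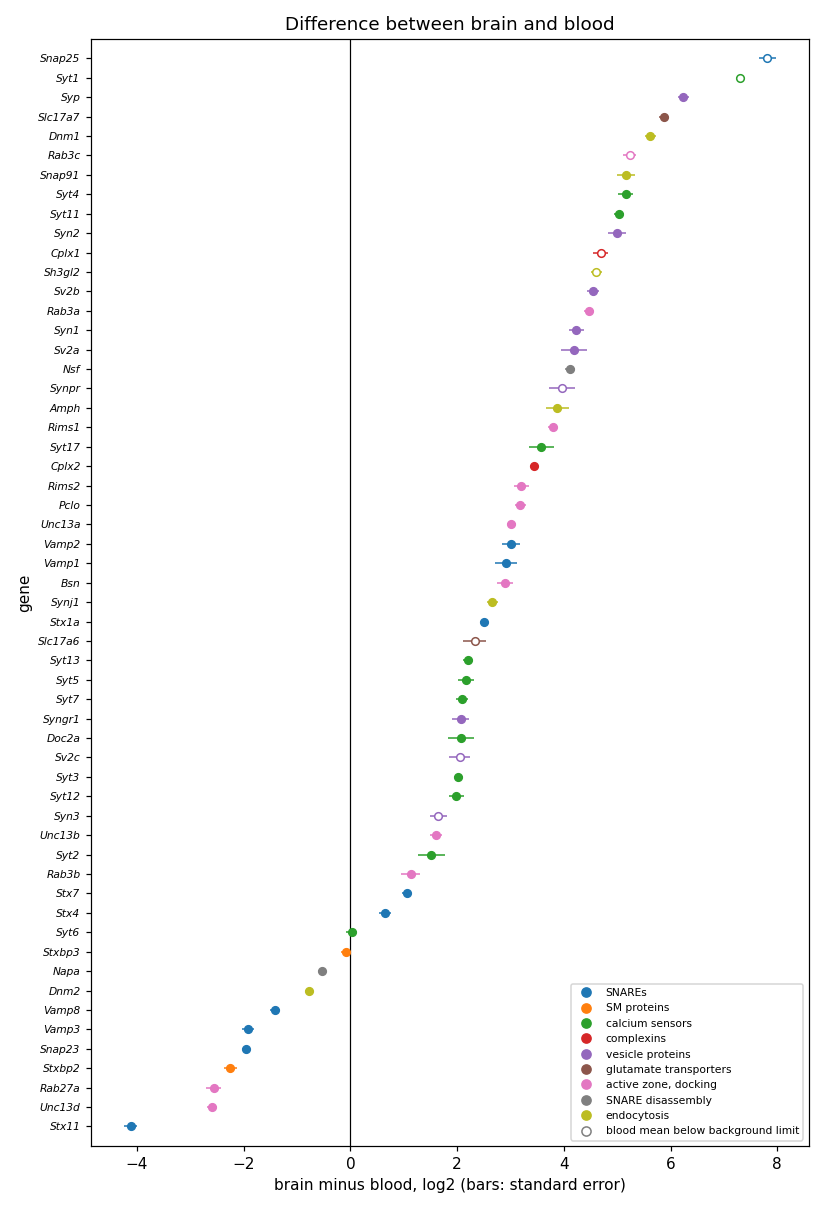
Difference in log2 level between brain (mean of HC and PFC) and blood for each tested member, with bars showing the standard error of the limma fit on 9 arrays, colours the role, and open points a blood mean below the background limit. Differences run from -4.12 for Stx11 to 7.81 for Snap25, and Stxbp3 and Syt6 lie next to 0.

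Among the SNAREs, all 10 measured members differed from blood, 6 higher and 4 lower in brain. Of all probe sets tested 86.2% were called, 48.8% higher and 37.4% lower, so these counts do not set the SNAREs apart. Snap25 (probe set 10840245), the plasma membrane SNARE of nerve terminals, was at 4.49, 5.38 and 4.82 in blood, 12.60, 12.55 and 12.55 in HC and 12.93, 12.83 and 12.82 in PFC. Its blood values were at background and far from its brain values, and the difference of 7.81 ± 0.160 (SE; limma adjusted p = 7.21e-11) was the largest of all members. Counted from the background limit, Snap25 was at least 145-fold higher in brain. Its paralog Snap23 (10940444), which serves exocytosis outside neurons, went the other way, with 9.89, 9.81 and 9.76 in blood, 7.91, 7.85 and 7.88 in HC and 7.80, 7.84 and 7.92 in PFC. The blood and brain values of Snap23 did not overlap, and it was 3.88-fold lower in brain (-1.96 ± 0.0684, limma adjusted p = 2.06e-09). A second probe set for Snap23 moved in the same direction by -1.11.

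The vesicle SNAREs split in the same manner. Vamp2 (10734875), the main synaptobrevin of the forebrain, stood at 7.18, 6.47 and 6.31 in blood, 9.61, 9.57 and 9.60 in HC and 9.74, 9.68 and 9.76 in PFC, a difference of 3.01 ± 0.163 (8.05-fold, limma adjusted p = 4.86e-08). Its brain arrays lay within 0.2 of each other and all above blood. Vamp1, its close relative, was 7.56-fold higher in brain. Vamp8 (10863218), a granule and endosome SNARE, read 7.60, 7.38 and 7.54 in blood, 6.05, 6.17 and 6.12 in HC and 6.01, 6.24 and 5.95 in PFC, 2.67-fold lower in brain without overlap (limma adjusted p = 1.66e-07). Vamp3, or cellubrevin, which acts in recycling endosomes, was lower in brain by 3.77-fold.

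Of the syntaxins, Stx1a (10761227), the partner of SNAP-25 at the synapse, rose from 7.33, 7.33 and 7.19 in blood to 8.95, 8.85 and 9.04 in HC and 10.56, 10.62 and 10.69 in PFC. The 3 tissues did not overlap, and the mean of the brain regions was 5.67-fold above blood (2.50 ± 0.0761, limma adjusted p = 8.14e-10). A second probe set annotated to Stx1a holds the same values in all 9 arrays and adds no evidence. Stx11 (10716880), a syntaxin of immune cells and platelets, showed 8.54, 8.36 and 8.86 in blood but 4.43, 4.56 and 4.58 in HC and 4.29, 4.28 and 4.65 in PFC. Both brain means of Stx11 lay below the background limits of 4.88 in HC and 4.85 in PFC, and from those limits it was at least 13.2-fold lower in brain (fitted difference -4.12 ± 0.127, limma adjusted p = 8.82e-10). Stx4 and Stx7, syntaxins of the plasma membrane and of endosomes in most cells, differed less, by 0.65 and 1.05 upward in brain.

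The Sec1/Munc18 proteins, which clasp syntaxins, were represented by Stxbp2 and Stxbp3. Stxbp2 (10759616) was at 7.86, 7.88 and 8.30 in blood, 5.86, 5.68 and 5.63 in HC and 5.61, 5.91 and 5.87 in PFC, a 4.78-fold lower level in brain with no overlap (limma adjusted p = 4.62e-08). Stxbp3, found in most cells, was at 7.45, 7.40 and 7.63 in blood, 7.65, 7.60 and 7.42 in HC and 7.27, 7.24 and 7.22 in PFC, and was not called (-0.09, limma adjusted p = 0.31). That small difference turned to 0.54, called higher in brain, when the arrays were scaled on 17 housekeeping genes, a scaling that raised every brain minus blood difference by 0.63. Of these 17 genes, 8 were themselves called higher and 6 lower in brain, from -2.15 for B2m to 2.26 for Sdha. Over all probe sets tested 48.8% were higher and 37.4% lower, so the panel is not a stable reference between these tissues.

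**Figure D3:**
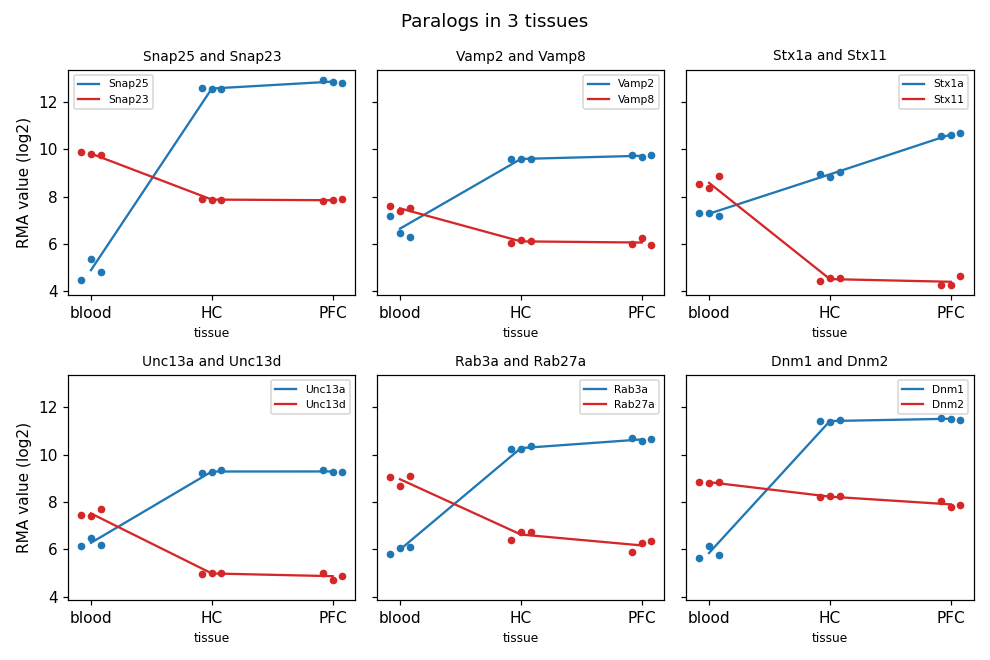
RMA log2 level of 6 paralog pairs by tissue, with points for the 3 rats and lines through the means, blue for the neuronal paralog and red for the other. Every blue line rises from blood to HC and PFC and every red line falls, the latter least for Dnm2.

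Levels of different probe sets cannot be compared, but the change of their difference between tissues can. The Snap25 minus Snap23 difference was 9.77 ± 0.518 (SD over 3 rats) larger in brain than in blood, from 9.28 to 10.31 in the single rats. For Stx1a and Stx11 the shift was 6.63 ± 0.287, and for Vamp2 and Vamp8 it was 4.43 ± 0.411. The pairs outside the SNAREs shifted as well. The priming factors Unc13a and Unc13d gave 5.60 ± 0.263, the Rab GTPases Rab3a and Rab27a 7.03 ± 0.535, and the dynamins Dnm1 and Dnm2 6.39 ± 0.255. The Rab pair does not stand for all its relatives. Rab3b and Rab3c were higher in brain, as given below. Rab3d (-0.21, limma adjusted p = 0.0979) and Rab27b (0.08, limma adjusted p = 0.573) were not called between brain and blood. In each of the 6 pairs the brain and blood differences did not overlap. An exact two-sided permutation test of 3 against 3 gave p = 0.1, the smallest value that test can give, so that none can pass 0.05 by it. The test took brain and blood as independent groups although both came from the same rats, so its p leaves the pairing out.

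To show what lies upstream of genes that moved apart, promoter sequences were taken from RefSeq (build GRCr8, 250 bases before to 50 after the annotated start), where 45 of the members were matched. The 5 sequences are those of the vesicle SNARE pair Vamp2 and Vamp8, the syntaxin pair Stx1a and Stx11, and Syn1, a member with a full cyclic AMP response element. They run 5′ to 3′ on the strand of the gene, and capitals mark TGACGTCA, the cyclic AMP response element, and GGGCGG or its reverse CCGCCC, the GC box. Vamp2 lies at chr10:54292539-54292838 on the plus strand, Vamp8 at chr4:106005593-106005892 on the minus strand, Stx1a at chr12:27306422-27306721 on the minus strand, Stx11 at chr1:9140170-9140469 on the minus strand and Syn1 at chrX:3725495-3725794 on the plus strand.
Vamp2: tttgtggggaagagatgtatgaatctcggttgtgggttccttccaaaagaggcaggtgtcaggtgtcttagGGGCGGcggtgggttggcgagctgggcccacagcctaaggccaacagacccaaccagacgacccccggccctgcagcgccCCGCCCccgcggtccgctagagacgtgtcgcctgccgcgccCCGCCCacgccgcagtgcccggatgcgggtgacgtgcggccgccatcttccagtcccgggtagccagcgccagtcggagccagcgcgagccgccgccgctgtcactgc
Vamp8: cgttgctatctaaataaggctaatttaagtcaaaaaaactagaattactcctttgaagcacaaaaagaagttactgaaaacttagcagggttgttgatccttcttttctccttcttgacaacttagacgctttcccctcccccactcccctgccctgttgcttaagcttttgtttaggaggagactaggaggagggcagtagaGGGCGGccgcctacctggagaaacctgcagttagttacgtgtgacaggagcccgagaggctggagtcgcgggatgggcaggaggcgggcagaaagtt
Stx1a: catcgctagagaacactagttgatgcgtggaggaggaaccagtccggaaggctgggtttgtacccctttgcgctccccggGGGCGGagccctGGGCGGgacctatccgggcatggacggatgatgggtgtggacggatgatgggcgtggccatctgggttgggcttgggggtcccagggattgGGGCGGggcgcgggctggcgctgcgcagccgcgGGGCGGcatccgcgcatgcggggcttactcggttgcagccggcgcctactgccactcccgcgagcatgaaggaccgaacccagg
Stx11: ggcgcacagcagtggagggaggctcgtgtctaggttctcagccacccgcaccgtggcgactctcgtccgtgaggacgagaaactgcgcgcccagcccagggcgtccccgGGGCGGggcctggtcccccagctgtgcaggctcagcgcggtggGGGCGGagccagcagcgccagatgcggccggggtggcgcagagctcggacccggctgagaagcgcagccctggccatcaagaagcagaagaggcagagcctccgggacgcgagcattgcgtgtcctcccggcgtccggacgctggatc
Syn1: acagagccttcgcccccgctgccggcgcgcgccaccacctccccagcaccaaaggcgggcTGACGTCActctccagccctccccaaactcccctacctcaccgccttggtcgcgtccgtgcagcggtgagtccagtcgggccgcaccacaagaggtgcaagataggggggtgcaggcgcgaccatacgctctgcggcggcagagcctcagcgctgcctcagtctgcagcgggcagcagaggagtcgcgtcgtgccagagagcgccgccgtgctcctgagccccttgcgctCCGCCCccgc
Vamp2 holds 3 GC boxes, Vamp8 1, Stx1a 4, Stx11 2 and Syn1 1. Stx11, which was at background in brain, has as many CpG dinucleotides in this window as Syn1 or Vamp2 (31 each), and Vamp8 has 9. Over the 45 members, searched on both strands, a GC box occurred in 32 promoters (71.1%), against 41.8% of 21851 protein-coding promoters and 33.1% of all 33469. It occurred in 25 of 34 members that were higher in brain and in 6 of 8 that were lower. The cyclic AMP response element was found in Napa, Sh3gl2, Syn1 and Vamp1, that is 4 of 45 (8.89%) against 2.1% of protein-coding promoters, and TATAAA, the TATA box, in Stxbp3 alone against 13%. These motifs do not overlap one another, and a match of letters is not evidence of a bound site.

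Of the 12 genes of the synaptotagmin and Doc2 families, 11 were higher in brain and none lower, against 48.8% and 37.4% of all probe sets tested. The figures label this group calcium sensors. Syt1 (10902232), the fast calcium sensor of the forebrain, was at 4.58, 4.51 and 4.54 in blood, 11.74, 11.69 and 11.81 in HC and 11.89, 11.93 and 12.01 in PFC. All blood arrays were under the background limit, and Syt1 was at least 79.4-fold higher in brain (fitted difference 7.30 ± 0.0681, limma adjusted p = 4.85e-12). Syt4 and Syt11, which lack a calcium-binding residue in a C2 domain, were higher by 5.16 and 5.03. Syt17 was higher by 3.58, and Syt3, Syt5, Syt7, Syt12 and Syt13 by 1.99 to 2.20. Syt2, the fast sensor of the hindbrain and of some inhibitory neurons, was higher by 1.52 ± 0.257, and Doc2a, a soluble sensor linked to spontaneous release, by 2.07 ± 0.246. Syt6 was not called, with blood values of 6.04, 6.36 and 6.37 among the HC values of 6.18, 5.94 and 6.28 and close to those of PFC at 6.46, 6.36 and 6.48, and under the housekeeping scaling it was called higher in brain by 0.66. The complexins Cplx1 and Cplx2 were higher in brain by at least 22.9-fold and by 10.9-fold.

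All 9 membrane and surface proteins of the synaptic vesicle were higher in brain, against 48.8% of all probe sets tested. Syp (10937103), synaptophysin, stood at 5.89, 6.36 and 6.06 in blood, 12.23, 12.21 and 12.28 in HC and 12.41, 12.44 and 12.46 in PFC, a 75.4-fold difference (6.24 ± 0.0998, limma adjusted p = 2.06e-11). The synapsins, which tether vesicles to actin, differed by 4.24 (Syn1), 4.99 (Syn2) and at least 1.38 (Syn3). SV2 proteins, glycoproteins of the vesicle membrane, differed by 4.20 (Sv2a), 4.54 (Sv2b) and at least 1.83 (Sv2c). Synpr, the synaptophysin relative synaptoporin, was higher by at least 3.57 and Syngr1, synaptogyrin, by 2.07. Syngr1 was one of the vesicle proteins present in blood, at 7.67, 8.32 and 7.46.

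The vesicular glutamate transporters load the transmitter. Slc17a7 (10706734), VGLUT1 of cortical and hippocampal principal cells, read 5.79, 5.50 and 5.47 in blood, 11.58, 11.46 and 11.64 in HC and 11.34, 11.34 and 11.36 in PFC, and was 58.4-fold higher in brain (limma adjusted p = 1.94e-11). Slc17a6, VGLUT2 of thalamic and brainstem cells, was at 7.35, 6.75 and 6.57 in HC, 7.22, 7.34 and 6.75 in PFC and 4.54, 5.09 and 4.37 in blood. Its blood arrays were all at background, and the difference was at least 2.75-fold.

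At the active zone, 9 of 11 members were higher in brain and 2 lower, against 48.8% and 37.4% of all probe sets tested. Rims1 and Rims2, scaffolds that bind Rab3 and calcium channels, were higher by 3.79 and 3.21, the giant scaffolds Bsn and Pclo by 2.89 and 3.19, and the priming factors Unc13a and Unc13b by 3.01 and 1.60. The vesicle GTPases Rab3a, Rab3b and Rab3c were higher by 4.47, 1.13 and at least 4.90. The exceptions were members known from granule secretion. Unc13d (10749075), Munc13-4, was at 7.45, 7.41 and 7.69 in blood, 4.96, 5.00 and 4.98 in HC and 5.00, 4.71 and 4.88 in PFC, next to the background limits in brain and 6.03-fold lower there (-2.59 ± 0.0918, limma adjusted p = 2.26e-09). Rab27a (10911524) read 9.07, 8.69 and 9.11 in blood, 6.41, 6.73 and 6.74 in HC and 5.89, 6.25 and 6.35 in PFC, 5.92-fold lower in brain without overlap (limma adjusted p = 4.81e-08).

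Both genes of SNARE disassembly were present in every tissue. Nsf, the ATPase, was higher in brain by 4.12 ± 0.0885. Napa, alpha-SNAP, was lower by -0.54 ± 0.0679 from blood values of 11.35, 11.21 and 11.33, and this difference became 0.09 and was no longer called under the housekeeping scaling (limma adjusted p = 0.342). Of the 6 genes of vesicle recycling, 5 were higher, against 48.8% of all probe sets tested. Dnm1, the neuronal dynamin that pinches vesicles off, was higher by 5.62 and Snap91, the clathrin adaptor AP180, by 5.17. Sh3gl2, endophilin A1, was higher by at least 4.37, Amph, amphiphysin, by 3.88, and Synj1, the phosphatase that uncoats vesicles, by 2.66. Dnm2, the dynamin of all tissues, was lower by -0.77 ± 0.0732, and this was lost under the housekeeping scaling (-0.14, limma adjusted p = 0.223).

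Of the 54 members called against blood, 51 were called under all 22 alternatives that did not add a size threshold. How many of all probe sets kept their calls in this way was not counted, so this does not set the members apart. Slc17a6 was called under the 21 in which it was tested and was not tested at the cut-off of 7.2, and Napa and Dnm2 lost their calls under the housekeeping scaling. Blood varied more between rats than brain did, while the fit pools their spread. In simulated data with that unequal spread and no pairing by rat, 67, 67 and 66 of 16884 probe sets were changed, by 0.5, 1 and 2. There the same fit called 1.32% of unchanged probe sets, which made up 56.5% of its few calls, and a fit with arrays weighted by tissue had 3.88% false calls. Far more probe sets were called in the real data, so that these shares of false calls cannot be carried over. When the real arrays were weighted by tissue, a fit chosen after seeing the data, 54 members were still called, 45 higher and 9 lower, with 79.6% of all probe sets called.

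Of 83 further exocytosis genes, 71 were measured and 59 tested against blood. Of these 59, 45 were higher in brain and 8 lower, against 48.8% and 37.4% of all probe sets tested. Their median was 1.36, against 0.22 over all probe sets. By the fitted difference, the 5 widest upward were those of Cadps, a priming factor of dense-core vesicles (at least 4.72), Syngr3 (4.29), Ppfia2, a liprin of the active zone (at least 4.14), Nrxn3, a neurexin (at least 3.67), and Svop, a vesicle transporter homolog (3.91). The blood means of Cadps, Ppfia2 and Nrxn3 lay below the background limit, so that these 5 have no settled order. Downward they were Stx5 of the Golgi (-1.62), Syngr2 (-1.50), Syngr4 (-1.01), Vamp5 (-0.94) and Ap2a2, a subunit of the clathrin adaptor AP2 (-0.75). Syngr1 and Syngr3 were thus higher in brain, and Syngr2 and Syngr4 higher in blood.

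Between the brain regions the members differed by less. In a limma fit of the 6 brain arrays, 52 members present in HC or PFC were tested among 14174 probe sets, and 36 of them (69.2%) were called, 10 higher and 26 lower in HC. Of all probe sets tested, 32.1% were called in this comparison, 15.9% higher and 16.2% lower. The further exocytosis genes did not share the lean of the members, with 12 higher and 13 lower in HC of 57 tested and a median of -0.01. The median difference of the members was -0.21, against 0.00 over all probe sets, and the median size regardless of sign was 0.28 against 0.12. In 27 of the 36 the difference was under 0.5. Each of the 36 had the same sign in all 3 rats, which is nearly given for genes called on these same arrays and adds no evidence.

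**Figure D4:**
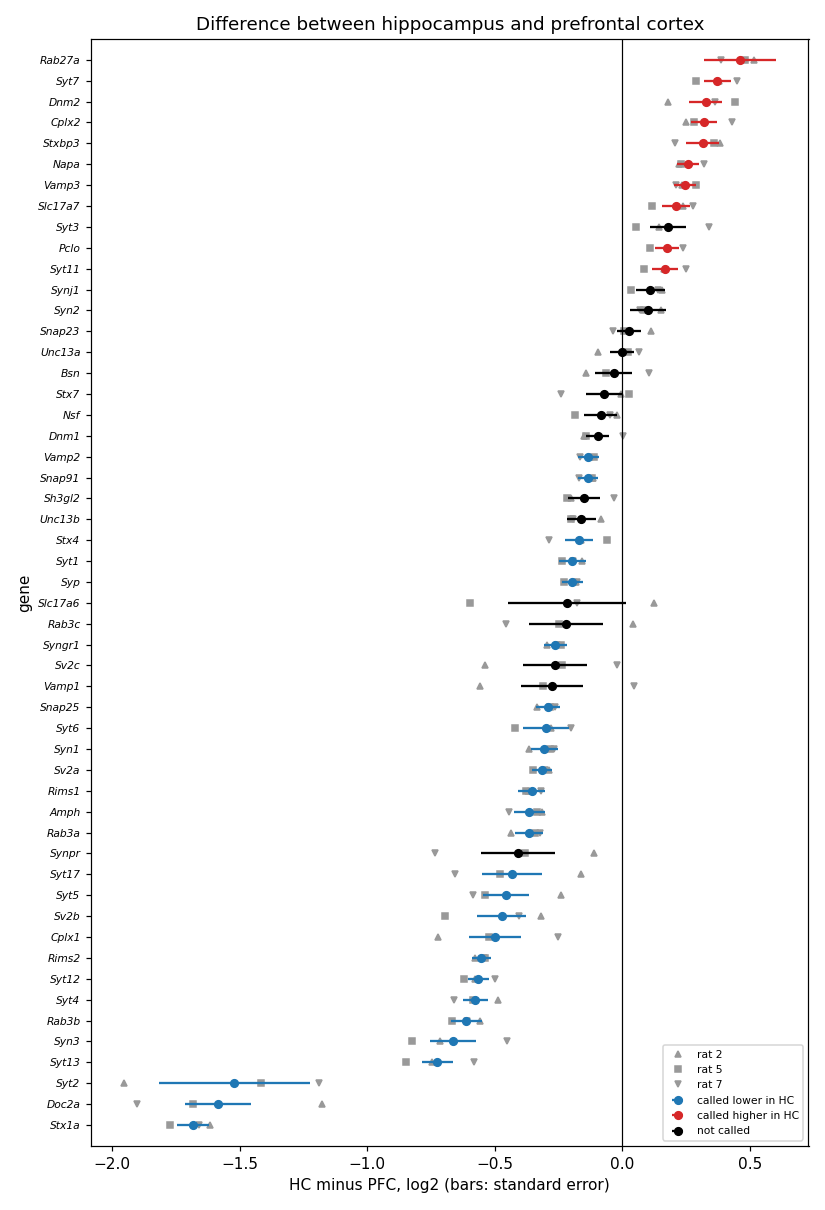
Difference in log2 level between HC and PFC for each of the 52 tested members, with bars showing the standard error of the limma fit on 6 arrays and grey symbols the 3 rats. Stx1a (-1.68), Doc2a (-1.59) and Syt2 (-1.52) lie far below 0, and Rab27a (0.46) is the highest.

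The number of calls depended on the arrays in the fit. It was 8 of the members when all 9 arrays were fitted, where 9.16% of all probe sets were called, and 14 without rat 5, and 3, all lower in HC, when a difference of at least 1 was asked for as well (of all probe sets 1.43% were then higher and 1.59% lower). Scaling on the housekeeping genes gave 11 higher and 16 lower. Leaving out any single array kept 26 of the 36 calls, 20 lower and 6 higher in HC, and ended at least once those of Vamp2, Stx4, Syt1, Syt6, Syt17 and Snap91, lower in HC, and of Syt11, Slc17a7, Pclo and Rab27a, higher in HC. The adjusted p of these 10 then lay between 0.0532 and 0.141. With the rat as a block, 33 members were called, against 33.8% of all probe sets: Vamp2, Stx4, Syt11 and Snap91 were no longer called (adjusted p = 0.071, 0.074, 0.058 and 0.069), and Synpr, lower in HC, was (adjusted p = 0.042).

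Stx1a differed most, with 8.95, 8.85 and 9.04 in HC and 10.56, 10.62 and 10.69 in PFC, 3.21-fold lower in HC (-1.68 ± 0.0623, limma adjusted p = 1.04e-05). Doc2a (10710936) was at 6.99, 6.80 and 6.76 in HC and 8.17, 8.48 and 8.66 in PFC, lower by a factor of 3.00 (-1.59 ± 0.129, limma adjusted p = 0.000175). Neither gene overlapped between the regions, and along with Syt13 (-0.73) and Rims1 (-0.36) they were called under all 20 alternatives that did not add a size threshold. Syt2 (10764174) was at 6.83, 6.83 and 6.38 in HC and 8.79, 8.25 and 7.57 in PFC, 2.87-fold lower in HC (limma adjusted p = 0.00825), and without rat 5 its adjusted p was 0.102.

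Of the 12 genes of the synaptotagmin and Doc2 families, 9 were lower in HC and 2 higher, against 16.2% and 15.9% of all probe sets tested. Syt13 was at 8.36, 8.28 and 8.36 in HC and 9.10, 9.13 and 8.94 in PFC, and Syt4 differed by -0.58, Syt12 by -0.57 and Syt5 by -0.46. Syt7, a slow sensor with high calcium affinity, went the other way, with 9.04, 9.0 and 9.16 in HC and 8.66, 8.71 and 8.72 in PFC (0.37 ± 0.054, limma adjusted p = 0.00231). The complexins diverged: Cplx1 was lower in HC by -0.50 and Cplx2 higher by 0.32, with 10.50, 10.53 and 10.66 in HC and 10.25, 10.25 and 10.23 in PFC. Both held when any single array was left out.

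Of the 9 vesicle proteins, 6 were lower in HC and none higher, against 16.2% and 15.9% of all probe sets tested. The 6 differences ran from -0.20 for Syp to -0.66 for Syn3. The values of Syn3 were 6.73, 6.51 and 6.73 in HC and 7.45, 7.34 and 7.18 in PFC. Snap25 was lower in HC by -0.29, without overlap. At the active zone Rab3b (-0.61), Rims2 (-0.55) and Rab3a (-0.37) were lower in HC, while Unc13a (0.00, limma adjusted p = 0.974) and Bsn (-0.03) were not called. Higher in HC were Vamp3 (0.25), Stxbp3 (0.31), Dnm2 (0.33) and Napa (0.26), which each kept their call without any single array. Stx4 was lower (-0.17), and Snap23 (0.03) and Stx7 (-0.07) were not called. Beside these values, the astrocyte markers were higher in HC (5 of 6 called, median 0.34), as were the oligodendrocyte markers (5 of 5, median 0.89), and of 10 neuronal markers 5 were lower and 2 higher (median -0.16). Of 4 striatal markers tested 2 were lower in HC, the choroid plexus marker Ttr was higher by 6.07, the globin Hbb was lower by -0.97 and the T cell marker Cd3e was higher by 2.10. Each of the last 3 was the only marker of its list present in HC or PFC, of 5 choroid plexus, 6 erythroid and 6 T cell markers measured. A single marker does not stand for its cell type. The part of these in the members' differences was not tested.

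The values of single rats spread unevenly. In HC only Slc17a6 ranged over 0.5 or more between rats, whereas 7 members did so in PFC. Among these, Syt2 (8.79, 8.25 and 7.57), Vamp1 (10.52, 10.31 and 10.01), Sv2c (7.89, 7.57 and 7.36) and Cplx3 (6.52, 5.74 and 5.88) were highest in rat 2, and Synpr (8.97, 9.35 and 9.60) and Rab3c (10.23, 10.58 and 10.84) were highest in rat 7. Syt2, Vamp1 and Sv2c were lowest in rat 7, and Cplx3 in rat 5. In the same PFC arrays the mean of the oligodendrocyte markers was 9.62, 9.24 and 9.07, that of the neuronal markers 10.63, 10.58 and 10.52 and that of the astrocyte markers 10.63, 10.66 and 10.68. Fezf2, the only measured gene of 6 listed for neocortical layers, was at 8.40, 8.55 and 8.79. The part of these in the spread was not tested. At the other end, Syt5 and Rims2 had the same value in all 3 HC arrays and Syt11 in all 3 PFC arrays, so that their spread there is understated.

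**Figure D5:**
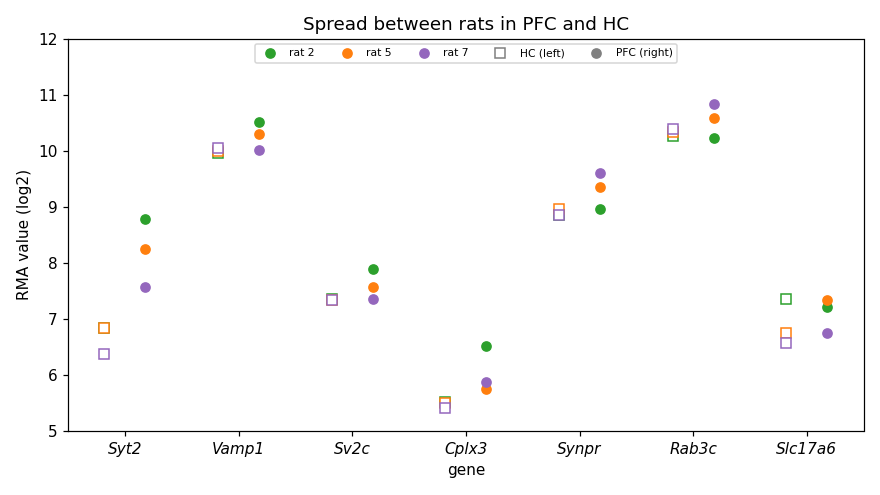
RMA log2 level of the 7 members that ranged over at least 0.5 between rats in PFC, with 1 symbol per array (open squares HC, filled circles PFC, colours the rat). In PFC Syt2, Vamp1, Sv2c and Cplx3 are highest in rat 2, Synpr and Rab3c in rat 7, and Slc17a6 in rat 5.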

How the data were processed

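Deposited values of 9 arrays were used: blood, HC and PFC of rats 2, 5 and 7. Array intensities had been quantile-normalized and RMA-transformed by the authors in the Affymetrix power tools; the deposited log2 values (1.53 to 14.01, base read from that method) were used unchanged. The sources name 4 or 6 animals, while 3 were analysed here. Detection p-values were not used. Quantile normalization gives all arrays a like distribution, so differences are relative to the whole. Depth does not apply to arrays, and their number limits the precision.

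Probe sets were named from the platform annotation (15310 with 1 symbol). Members were matched on the symbols of that annotation, and the marker genes, further exocytosis genes and paralog pairs on updated symbols. Tests used limma 3.58.1 in R 4.3.3 (lmFit, eBayes, Benjamini-Hochberg, threshold 0.05) on probe sets with a mean above 6.2 in a tissue compared, without a rat block. On simulated data with few changed probe sets, 56.5% of the calls against blood were false, and 5.97% of those between HC and PFC. Any member may be named. Of the other exocytosis genes, up to 5 in each direction with the widest difference were named by rule, and others were chosen after their values were seen. The members and lists were chosen with earlier results of these data known.

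The rat numbers in the labels give the animal, and so pair the tissues. Deviations of the same rat correlated at 0.137 to 0.287 between HC and PFC and at -0.079 to 0.052 between blood and a brain region.

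Alternatives were no filter, a cut-off of 7.2, rat blocks, 2 other scalings, trend and robust, a log2 difference of 1, probe set means, all 9 arrays, and leaving out arrays or rats. Arrays weighted by tissue and differences within each rat were chosen after seeing the data. Plots were made in Python 3.11.15 (matplotlib 3.10.9).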

Additional observations from a re-analysis of the deposited data

How the results depend on the processing

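Against blood, 51 to 55 members were called under every alternative, and a block for rat, fixed or random, gave 54, as without it. Between HC and PFC the rat block gave 33 calls (fixed) or 36 (random), against 36 without it. That count was 8 with all 9 arrays, 3 with a difference of at least 1, and 14 (without rat 5) to 32 with an array or rat left out. Members higher in HC numbered 10, but 6 without the filter, 2 with 9 arrays, 0 with a difference of at least 1 and 1 to 10 with an array or rat left out. Members lower in HC numbered 26, but 16 with housekeeping scaling, 6 with 9 arrays, 3 with a difference of at least 1 and 13 to 26 with an array or rat left out. Presence in blood went from 29 to 17 at 7.2 and 47 above the chemosensory limit. Raising values to that limit changed the pair shift of Snap25 and Snap23 to 9.13 and of Stx1a and Stx11 to 6.23. Signs turned for some small differences. Against blood, housekeeping scaling gave 0.54 for Stxbp3 and 0.094 for Napa, and with an array or rat left out Stxbp3 ran from -0.15 to 0.015 and Syt6 from -0.10 to 0.14. Between HC and PFC, housekeeping scaling gave 0.027 for Stx7, 0.098 for Unc13a, 0.067 for Bsn, 0.015 for Nsf and 0.0036 for Dnm1, and the mean of the probe sets gave -0.040 for Snap23. With an array or rat left out, Snap23 ran from -0.015 to 0.060, Stx7 from -0.13 to 0.010, Unc13a from -0.036 to 0.044 and Bsn from -0.10 to 0.020. The cause of these changes was not tested.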

Other observations

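Among the exocytosis genes outside the 58, 4 with wide differences between the brain regions are given here, chosen after their values were seen. Rims3, a short RIM that binds calcium channels, was at 5.88, 6.12 and 5.98 in HC and 8.16, 8.09 and 8.02 in PFC (-2.10, limma adjusted p = 9.2e-06). Its HC arrays were at the level of blood (5.96, 5.89 and 5.97). Doc2b, the paralog of Doc2a, went against Doc2a, with 7.65, 8.36 and 8.07 in HC and 6.02, 6.59 and 6.43 in PFC (1.68, limma adjusted p = 0.00112). Slc17a8, the third vesicular glutamate transporter, read 6.86, 6.62 and 6.94 in HC and 5.45, 5.44 and 5.48 in PFC (1.35, limma adjusted p = 5.24e-05). Rph3a, rabphilin, an effector of Rab3, was lower in HC by -0.84 (limma adjusted p = 3.12e-05). None of these 4 genes overlapped between HC and PFC, which is nearly given for genes chosen for wide differences and adds no evidence. The share of all probe sets without overlap was not counted. Rims3 was present in PFC but not in HC, and Slc17a8 in HC but not in PFC. Each thus entered the test only through the region where it was higher, and its direction was largely set by the filter. Sytl5 (1.38), Ppfia4 (0.98) and Erc1 (0.87), all higher in HC, differed by more than Rph3a and were not among the 4.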
